A study of Mus musculus with 36 samples.

Results

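Hippocampal slices of T41B mice were compared with those of wild-type mice, where both had been given vehicle and both had gone through the sham procedure. The libraries were chosen by their labels, with the treatment VEH and the stimulation noSTIM, which gave 8 of the 36 libraries of the series, 4 of each genotype and each from a mouse of its own. T41B mice (Line 41) carry a human APP gene with the London and Swedish mutations behind a Thy1 cassette, which drives it in neurons, and they accumulate amyloid. The wild-type mice were C57BL/6. All 8 mice were dosed by oral gavage with vehicle for 3 months, from 13 to 16 months of age. The sham slices came from the right hippocampus, were handled for as long as the stimulated slices but without theta-burst stimulation, and were then frozen. The rest of the series holds stimulated slices of the same mice, and slices of other mice that received BD10-2, which partly activates TrkB and TrkC, receptors for neurotrophins. The sex of the mice was not given in the sources used here.

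The wild-type mice were Mouse1509 and Mouse1513, with the batch label E, Mouse1522 with the label A, and Mouse1524 with the label C. The T41B mice were Mouse1510 with the label A, Mouse1551 and Mouse1553 with the label G, and Mouse1579 with the label C. Batches A and C therefore held 1 mouse of each genotype, whereas E held only wild-type mice and G only T41B mice, and in those batches genotype and batch cannot be told apart. The labels do not say which step the batch letter stands for.

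Microglia are the resident immune cells of the brain. Around amyloid deposits they are known to take on a state marked by the receptor pair Trem2 and Tyrobp, by lysosomal and lipid-handling genes and by surface molecules such as Itgax and Clec7a. Astrocytes near deposits raise the filament protein Gfap, and oligodendrocytes near them are known to raise complement and antigen-presentation genes. Neurons hold most of the transcripts for synapses and ion channels.

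The 8 libraries held 13260592 to 20765107 expected counts, of which mitochondrial genes took 2.46% to 4.35%. No library was a copy of another of its genotype, since the chi-square between mice of 1 genotype was 9.05 to 76.8 times its degrees of freedom. Of 19478 genes tested with edgeR's quasi-likelihood test, 973 were higher in T41B slices at a Benjamini-Hochberg adjusted p under 0.05, a background of 5.0%, and 242 were lower, a background of 1.24%. These are the genes called below. The median log2 fold change over all genes tested was 0.00145. The 8 mice compared are separate animals. The fit also held sham and stimulated slices of the same mice with no term for the mouse, whose estimated correlation was 0.339, and a fit of the 8 libraries alone made 537 calls, 518 higher and 19 lower. In slices, more cells of a type and more RNA per cell cannot be told apart.

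Thy1, whose cassette drives the transgene, was checked first. It stood at 374, 306, 366 and 403 CPM (counts scaled to the TMM-adjusted library size) in the wild-type mice and at 1034, 1968, 1679 and 2099 CPM in the T41B mice, in the order Mouse1510, Mouse1551, Mouse1553 and Mouse1579, which is kept throughout. The groups did not overlap, with means of 362 ± 40.7 CPM (SD, n = 4) and 1695 ± 475 CPM (SD, n = 4), and the labels were thus met in all 8 mice. The log2 fold change was 2.23 (SE 0.22). An exact two-sided permutation test gave p = 0.0286, the smallest that 4 against 4 mice allow, and 0.0571 after adjustment over Thy1 and App. App of the mouse, the precursor of amyloid-β, was 1243 ± 128 CPM in wild-type and 1137 ± 29.1 CPM in T41B mice (SD, n = 4, exact permutation p = 0.114). Whether reads of the human transgene were counted under either mouse gene is not given in the sources used here.

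Genes of plaque-associated microglia were higher by a wide margin. Of 24 genes on that list, 21 were called higher, with a list median log2 fold change of 2.00, and 20 had every T41B mouse above every wild-type mouse, which held for 6.25% of all genes. Cst7, an inhibitor of lysosomal cathepsins (ENSMUSG00000068129, chr2:150570415-150578944 in GENCODE M21 on GRCm38), changed most of the called genes that averaged 1 CPM or more and did not overlap. It was near the detection limit in wild-type mice, at 0.178, 0.216, 0.44 and 0.52 CPM, and stood at 21.6, 42.4, 26.5 and 31.1 CPM in T41B mice, which is 6.45 on the log2 scale (SE 0.47) at an edgeR adjusted p of 7.78e-10. Itgax, the integrin chain CD11c, stood at 0.356, 0.504, 0.629 and 0.404 CPM in wild-type and at 10.2, 18.1, 13.1 and 16.9 CPM in T41B mice (log2 fold change 4.94, SE 0.38). In both genes Mouse1510 was the lowest and Mouse1551 the highest of the T41B mice. That order was common in the list: Mouse1551 held the highest T41B value in 20 of the 24 genes and Mouse1510 the lowest in 22.

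The region just upstream of Cst7 is shown because this gene changed most. The 250 bases before its start site (RefSeq, GRCm38.p6, chr2:150570165-150570414, plus strand) read 5′ to 3′, with no capitals because neither motif searched below has its letters there:
Cst7: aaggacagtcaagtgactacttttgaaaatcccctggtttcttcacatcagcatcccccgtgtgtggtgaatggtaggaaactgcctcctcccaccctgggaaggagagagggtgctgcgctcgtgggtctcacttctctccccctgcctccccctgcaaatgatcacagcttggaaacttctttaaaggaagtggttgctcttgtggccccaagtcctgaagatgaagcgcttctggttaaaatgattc

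**Figure D1:**
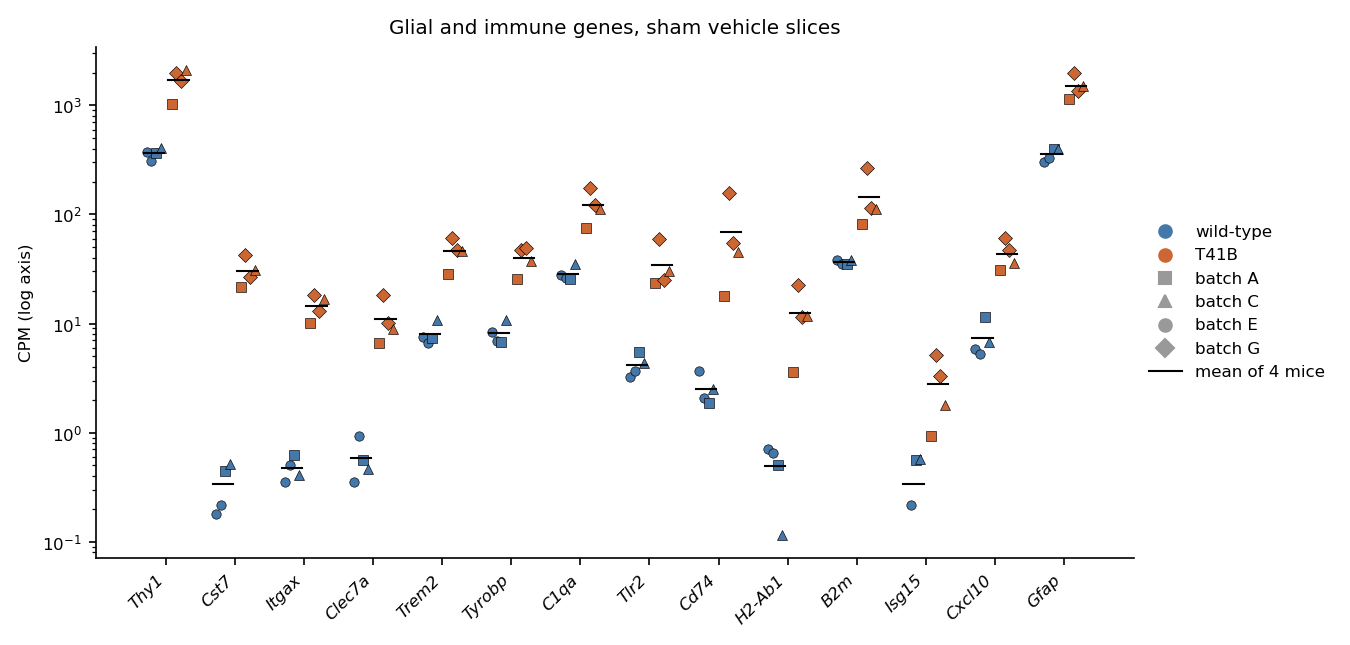
CPM of 14 genes in each of the 8 sham vehicle mice on a log axis, wild-type in blue and T41B in orange, with the batch label as the symbol and the mean of 4 mice as a line. All 4 T41B mice lie above all 4 wild-type mice in each gene shown, and the square of Mouse1510 is the lowest T41B value in each of the 14 genes. The wild-type mouse with no Isg15 count has no point on the log axis.

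Other genes of the same list span receptors, signalling and lipid transport. Clec7a, the β-glucan receptor dectin-1, stood at 0.356 to 0.937 CPM in wild-type mice and at 6.56 to 18.1 CPM in T41B mice (log2 fold change 4.26, SE 0.41). Spp1, the secreted protein osteopontin, stood at 0.83 to 2.39 CPM against 13 to 20.04 CPM (log2 fold change 3.55, SE 0.46). Trem2, the lipid-sensing receptor, rose by 2.51 on the log2 scale (SE 0.25) and its adaptor Tyrobp by 2.27 (SE 0.26). Apoe, the lipid carrier made mostly by astrocytes and by such microglia, was called at 0.66 on the log2 scale (SE 0.17) with an edgeR adjusted p of 0.0143, although its groups overlapped, at 815 to 1293 CPM in wild-type and 1218 to 1773 CPM in T41B mice. With batch as a covariate Apoe was not called (edgeR adjusted p = 0.271), nor without the batch G mice (0.498). The listed genes that were not called were the pyrophosphate transport gene Ank at log2 0.04 (SE 0.08) and the fatty acid binding protein gene Fabp5 at 0.24 (SE 0.12). The third, named after its value was seen, was the lipase gene Lpl at 0.32 (SE 0.16).

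Markers of microglia in general moved the same way by less. All 18 listed genes shared by myeloid cells were called higher, with no overlap between the genotypes in any of them and a median log2 fold change of 1.36. Ly86, the partner protein of a Toll-like receptor relative, stood at 6.23, 5.55, 5.91 and 6.99 CPM in wild-type and at 16.7, 33.8, 27.2 and 27.3 CPM in T41B mice (log2 fold change 2.09, SE 0.22). The Fc receptor chain gene Fcer1g and the transcription factor gene Irf8 had log2 fold changes of 2.00 and 1.82. Without the batch G mice 15 of the 18 were called, and Irf8 was not (edgeR adjusted p = 0.0554). Of the 16 genes that mark resting microglia, 10 were called higher and the list median was 0.89. Among them, the secreted protein gene Olfml3 rose by 1.29 (SE 0.18), Selplg by 1.29 (SE 0.21) and Fcrls by 1.25 (SE 0.21), and Cx3cr1, the fractalkine receptor, rose by 1.06 (SE 0.22). Among the resting markers that were not called, the phagocytic receptor gene Mertk had a log2 fold change of 0.00 (SE 0.10), and Sparc one of 0.40 (SE 0.17). The 2 markers best known for this state were looked up after their values were seen, and Tmem119 was called (0.89, SE 0.26, edgeR adjusted p = 0.0385) whereas P2ry12 was not (0.56, SE 0.22, edgeR adjusted p = 0.14). Tmem119 was not called with batch as a covariate (edgeR adjusted p = 0.487), in batches A and C alone (0.0896) or without the batch G mice (0.607), and in those settings P2ry12 was not called either (0.519, 0.12 and 0.894). Of the 16 resting markers, 6 were called without the batch G mice, and Cx3cr1 was not one of them (0.136).

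Markers of other blood-derived or border cells stayed low or were not called. The 9 monocyte and neutrophil markers, Ly6c2, Ccr2 and S100a8 among them, summed to at most 0.938 CPM in any of the 8 mice, none passed the filter on low counts, and Ngp, Camp and Retnlg had no count. The 16 lymphocyte markers summed to 0.982 to 1.48 CPM in wild-type mice and to 1.88, 5.28, 2.18 and 4.62 CPM in T41B mice. Of the 7 that were tested, edgeR called 0, with 4 higher at an unadjusted p under 0.05 and 0 called by DESeq2 or limma. Markers of border macrophages summed to 15.3 to 23.6 CPM in wild-type and 14.1 to 23.04 CPM in T41B mice. Of the 6 tested, edgeR, DESeq2 and limma each called 0, and 1 was higher at an unadjusted p under 0.05.

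Complement, Fc receptor and Toll-like receptor genes were higher as well. Of 18 complement genes, 12 were called higher, with a list median of 1.35. The 3 chains of C1q, which starts the classical cascade, had close values: C1qa stood at 27.8, 26.2, 25.7 and 34.9 CPM in wild-type and at 75.9, 174, 123 and 111 CPM in T41B mice (log2 fold change 2.08, SE 0.22), and C1qb and C1qc had log2 fold changes of 1.98 and 2.04. C4b, the next component, rose from 126 ± 21.96 to 418 ± 155 CPM (SD, n = 4; log2 fold change 1.73, SE 0.20), and C3, named after its value was seen, had a log2 fold change of 1.77 (SE 0.35) and was not called with batch as a covariate (edgeR adjusted p = 0.111), but was in batches A and C alone (0.024) and without the batch G mice (0.0347). Of 13 tested genes of Fc receptors and signalling by the kinase Syk, 12 were called higher, among them the inhibitory receptor gene Fcgr2b (2.73, SE 0.30). That list also holds Trem2 and Tyrobp, named above. Of 14 tested Toll-like receptors and adaptors, 12 were called higher. Tlr2, a sensor of lipoproteins, stood at 3.2, 3.68, 5.47 and 4.33 CPM in wild-type and at 23.7, 59.2, 24.8 and 30.6 CPM in T41B mice (log2 fold change 3.05, SE 0.29), and its co-receptors Tlr1 and Cd14 had log2 fold changes of 2.21 and 1.97. Without the batch G mice, 5 of the 14 Toll-like receptor genes and 7 of the 13 Fc receptor and Syk genes were called. The complement count was 11 of 18.

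Genes of antigen presentation rose in both classes. Class II molecules present peptides from outside the cell. Of the 13 listed genes, 8 were called higher. The chain genes H2-Aa, H2-Ab1 and H2-Eb1 and the invariant chain gene Cd74 rose by 5.67, 4.66, 4.74 and 4.75 on the log2 scale (SE 0.93, 0.81, 0.89 and 0.70). Their T41B values spread widely. H2-Aa stood at 0.178 to 0.504 CPM in wild-type mice and at 3.69, 35.3, 10.6 and 12.1 CPM in T41B mice, and Cd74 at 1.89 to 3.68 CPM in wild-type and at 18, 157, 54.4 and 45.3 CPM in T41B mice. Mouse1551 was the highest and Mouse1510 the lowest in both, yet even Mouse1510 lay above every wild-type mouse, and without the batch G mice both were still called (log2 fold changes of 4.71 and 3.64), while H2-Eb1 was not (edgeR adjusted p = 0.0563). The peptide-loading gene H2-DMa and the costimulatory gene Cd80 were not called, at 0.45 (SE 0.17) and 0.91 (SE 0.40). Class I molecules present peptides made inside the cell, and 12 of 16 listed genes were called higher. B2m, their light chain, stood at 35.02 to 37.9 CPM in wild-type mice and at 81.4, 264, 116 and 113 CPM in T41B mice (log2 fold change 1.98, SE 0.24). The heavy chain genes H2-D1, H2-K1 and H2-Q7 and the immunoproteasome gene Psmb8 had log2 fold changes of 1.98, 1.71, 2.25 and 2.15. The heavy chain genes are near copies of one another, so the division of reads between them is uncertain. Without the batch G mice, 6 of 16 class I and 5 of 13 class II genes were called, and limma called 7 and 5 with all mice.

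Interferon-stimulated genes, which cells switch on after type I interferon, were mostly higher, to degrees that differed between the T41B mice. Of 28 genes, 20 were called higher, with a median log2 fold change of 1.96, and in 24 every T41B mouse lay above every wild-type mouse. Isg15, a ubiquitin-like modifier, stood at 0, 0.216, 0.566 and 0.578 CPM in wild-type and at 0.938, 5.18, 3.3 and 1.79 CPM in T41B mice (3.03 on the log2 scale, SE 0.69, with an edgeR adjusted p = 0.00565). Oas1a, a sensor of double-stranded RNA, stood at 0 to 0.377 CPM in wild-type and at 0.938, 5.04, 1.97 and 1.47 CPM in T41B mice (log2 fold change 3.52, SE 0.73). Mouse1551 held the highest T41B value in 27 of the 28 genes. The highest named fold change was that of Ifi27l2a (3.97, SE 0.77), Ifi204 had 2.94 (SE 0.62), and the transcription factor gene Stat2 was not called (0.44, SE 0.22). The count depended on the tool: limma, with the mouse as a random effect, called 2 of the 28 and DESeq2 called 22. With batch as a covariate edgeR called 5, and without the batch G mice 3, with list medians of 1.42 and 1.54.

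The upstream regions of 3 of these genes are shown because they hold, in capitals, the interferon response element type searched for: GAAA, any 2 bases, and GAAA again, on either strand, where copies may overlap. The element was found within 250 bases before to 50 after the start in 12 of the 19 listed interferon-stimulated genes that had a RefSeq window, 63.2%, against 3.78% of the 12445 tested genes with a window. Each line gives the 250 bases before the start site, 5′ to 3′ on the gene's strand, in GRCm38.p6: Isg15 at chr4:156200819-156201068 on the minus strand, Oas1a at chr5:120907526-120907775 on the minus strand, and Ifit1, an RNA-binding antiviral protein chosen after its values were seen, at chr19:34640639-34640888 on the plus strand.
Isg15: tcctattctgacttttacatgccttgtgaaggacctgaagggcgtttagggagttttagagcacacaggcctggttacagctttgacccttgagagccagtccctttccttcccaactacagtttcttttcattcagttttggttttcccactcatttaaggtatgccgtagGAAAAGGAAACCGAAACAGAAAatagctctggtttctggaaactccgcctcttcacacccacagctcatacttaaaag
Oas1a: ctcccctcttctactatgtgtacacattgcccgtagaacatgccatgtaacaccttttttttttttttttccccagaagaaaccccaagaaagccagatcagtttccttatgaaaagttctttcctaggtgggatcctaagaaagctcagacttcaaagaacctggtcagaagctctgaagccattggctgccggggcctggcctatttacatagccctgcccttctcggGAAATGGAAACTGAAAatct
Ifit1: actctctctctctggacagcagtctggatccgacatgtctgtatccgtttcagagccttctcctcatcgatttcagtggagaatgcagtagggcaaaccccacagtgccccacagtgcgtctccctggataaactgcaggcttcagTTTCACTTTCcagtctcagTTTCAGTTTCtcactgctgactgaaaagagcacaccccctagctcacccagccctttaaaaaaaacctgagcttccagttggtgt

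The copies began 78, 72 and 66 bases before the start in Isg15 and 20 and 14 bases before it in Oas1a, and Ifit1 held 2 copies on the opposite strand. Ifit1 stood at 1.13, 1.23, 6.04 and 1.96 CPM in wild-type and at 8.75, 24.8, 10.2 and 9.13 CPM in T41B mice (log2 fold change 2.36, SE 0.47). Over all called genes with a window, this element was present in 9.37% of the 747 called higher and 3.12% of the 160 called lower. The second motif, GAGGAAGT, a form of the site of the myeloid factor PU.1, was present in 7.76% of the genes called higher, 1.88% of those called lower and 3.46% of all tested genes with a window. These shares describe letters in a window and carry no test. They say nothing of a factor being bound.

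Secreted signals of inflammation were higher in part of their lists. Of 17 tested cytokine genes, 9 were called. Tnf, a main inflammatory cytokine, stood at 6.46, 4.18, 6.29 and 5.83 CPM in wild-type and at 12.2, 36.0, 28.4 and 16.9 CPM in T41B mice (log2 fold change 2.04, SE 0.32), and Osm, which acts on astrocytes among other cells, had a log2 fold change of 1.93 (SE 0.30). Il33 and Il34, made by glia and neurons, were not called, at 0.46 (SE 0.19) and -0.45 (SE 0.20). Of 18 chemokine genes, 11 were called, among them Ccl5 (3.91, SE 0.83), Ccl6 (2.73, SE 0.31), Ccl4 (2.66, SE 0.44) and the interferon-responsive Cxcl10 (2.58, SE 0.39). Cx3cl1, the neuronal ligand of Cx3cr1, was not called, at -0.16 (SE 0.09). Of 17 cytokine receptor genes, 10 were called, including Il10ra (1.26, SE 0.20). Cxcr6 was called, but all wild-type libraries were at 0 and the T41B mean of 0.157 CPM lay under the floor of 3 counts per library, so no fold is given. With the batch G mice left out, 5 cytokine, 5 chemokine and 4 cytokine receptor genes were called. Ccl5 and Ccl4 were not among them (edgeR adjusted p = 0.37 and 0.0676). Of the chemokine genes limma called 6 with all mice.

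Intracellular regulators of inflammation were called higher in part of their lists as well. Of 16 genes of NF-κB and its inhibitors, 12 were called higher with a median of 0.79, including the survival gene Bcl2a1b (2.48, SE 0.30), Bcl3 (1.85, SE 0.27), Nfkb2 (1.10, SE 0.18) and the inhibitor gene Tnfaip3 (1.26, SE 0.19). Of 10 inflammasome genes, 4 were called, led by the adaptor gene Pycard and the sensor gene Nlrp3, both at 1.47. The counts were 8 of 16 and 2 of 10 without the batch G mice, and limma called 2 inflammasome genes. Acod1, which makes itaconate in activated macrophages, stood at 0 to 0.314 CPM in wild-type and at 1.63, 5.18, 4.94 and 0.945 CPM in T41B mice (log2 fold change 4.62, SE 1.01). Hcar2, a receptor for niacin and ketone bodies, stood at 0.119 to 0.377 CPM in wild-type and at 4.44, 9.63, 7.76 and 4.57 CPM in T41B mice (log2 fold change 4.53, SE 0.58). In both, the batch G mice were the highest, and neither overlapped the wild-type range. When those mice were left out, Acod1 was not called (edgeR adjusted p = 0.4) and Hcar2 was (0.000575). The integrin chain gene Itgb2, which pairs with Itgax, rose by 1.95 (SE 0.20).

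Lysosomal genes were higher in 23 of 34, with 1 called lower and a median of 0.74. Cd68, a membrane protein of phagocyte lysosomes, stood at 5.57, 6.2, 7.04 and 6.93 CPM in wild-type and at 23.3, 38.9, 29.7 and 30.6 CPM in T41B mice (log2 fold change 2.25, SE 0.22). Gpnmb and the protease gene Ctss had log2 fold changes of 2.29 and 1.95. Atp6v0d2, a subunit of the proton pump, had no count in any wild-type library and stood at 0.438, 0.444, 0.691 and 0.84 CPM in T41B mice, at least 3.19-fold higher against a floor of 3 counts per library. With Atp6v0d2 at that bound the list median was also 0.74. Psap and Scarb2, which all cells express, were not called, at 0.02 (SE 0.09) and 0.25 (SE 0.09). Of 18 lipid-handling genes 5 were called higher and 1 lower, with Ch25h, the cholesterol 25-hydroxylase gene, at 2.53 (SE 0.33) and the lipid droplet gene Plin2 at 1.15 (SE 0.30). Plin2 was not called with batch as a covariate (edgeR adjusted p = 0.303) or without the batch G mice (0.166). When the batch G mice were left out, 17 lysosomal and 2 lipid-handling genes were called higher. Cell-cycle genes rose in 3 of 14 tested: Mki67 (1.82, SE 0.30), Top2a (1.46, SE 0.30) and Pcna (0.38, SE 0.11). Mki67 stood at 0.52 to 1.26 CPM in wild-type and at 2.94 to 3.6 CPM in T41B mice. Pcna was not called with batch as a covariate (edgeR adjusted p = 0.625) or without the batch G mice (0.721). Mki67 and Top2a kept their calls in both settings but not in batches A and C alone (edgeR adjusted p = 0.0585 and 0.333).

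Astrocyte genes divided by kind. Of 28 genes of reactive astrocytes, 18 were called higher, with a median of 1.40. Of 18 astrocyte identity genes 3 were, with a median of 0.22. The called members of the reactive list with the largest change include Cxcl10 and Cd14, named above with the chemokines and Toll-like receptors. The cell type that made their RNA was not tested. Gfap stood at 305, 332, 400 and 396 CPM in wild-type and at 1145, 1991, 1350 and 1500 CPM in T41B mice (2.06 on the log2 scale, SE 0.19, with an edgeR adjusted p = 4.4e-08). It was called in each batch setting, at 1.73 with batch as a covariate and 1.89 without the batch G mice. Ptx3, a secreted pattern recognition protein, was called at 2.27 (SE 0.64) but in none of the 3 batch settings (edgeR adjusted p = 0.0973 with batch as a covariate, 0.0594 in batches A and C alone and 0.0623 without the batch G mice). Osmr, the receptor for Osm, was not called (0.43, SE 0.29). Among identity genes, the water channel gene Aqp4 (0.65, SE 0.19) and the transcription factor gene Sox9 (0.56, SE 0.16) were called with overlapping groups. The glutamate transporter gene Slc1a2 had a log2 fold change of -0.09 (SE 0.11), and the glutamine synthetase gene Glul one of 0.35 (SE 0.13). No astrocyte identity gene was called by edgeR with batch as a covariate, where 3 were higher and 1 lower at an unadjusted p under 0.05, or without the batch G mice, where 4 were higher. In batches A and C alone edgeR called 1, Aqp4 (0.57, adjusted p = 0.0218).

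Oligodendrocyte genes known from plaque surroundings were higher in 8 of 14, with a median of 1.20, but the leading members, H2-D1, B2m, C4b and H2-K1, are those of the class I and complement lists, and 7 were called without the batch G mice. Klk6, a protease of myelinating cells that was named after its value was seen, stood at 0.692 to 1.8 CPM in wild-type and at 3.0 to 5.68 CPM in T41B mice (log2 fold change 1.64, SE 0.34), and was not called with batch as a covariate (edgeR adjusted p = 0.132) or without the batch G mice (0.0826). Of 19 myelin and lineage genes, 2 were called higher with overlapping groups, the tight-junction gene Cldn11 (0.70, SE 0.21) and the transferrin gene Trf (0.70, SE 0.19). The myelin gene Mbp (0.65, SE 0.27) was not called. Neither Cldn11 nor Trf was called with batch as a covariate (edgeR adjusted p = 0.514 and 0.375) or without the batch G mice (0.906 and 0.777). With the covariate edgeR called 0 of the 19, with 1 higher at an unadjusted p under 0.05, and without the batch G mice 0, with 0 at that p. The 19 genes summed to 10090 and 11280 CPM in the batch G mice, against 4409 to 6805 CPM in the other 6 mice, and within batches A and C their median log2 differences were 0.11 and 0.01. The part of the myelin content of these slices in other results was not tested. Of 12 genes of oligodendrocyte precursors, edgeR, DESeq2 and limma each called 0, and 1 was higher at an unadjusted p under 0.05.

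**Figure D2:**
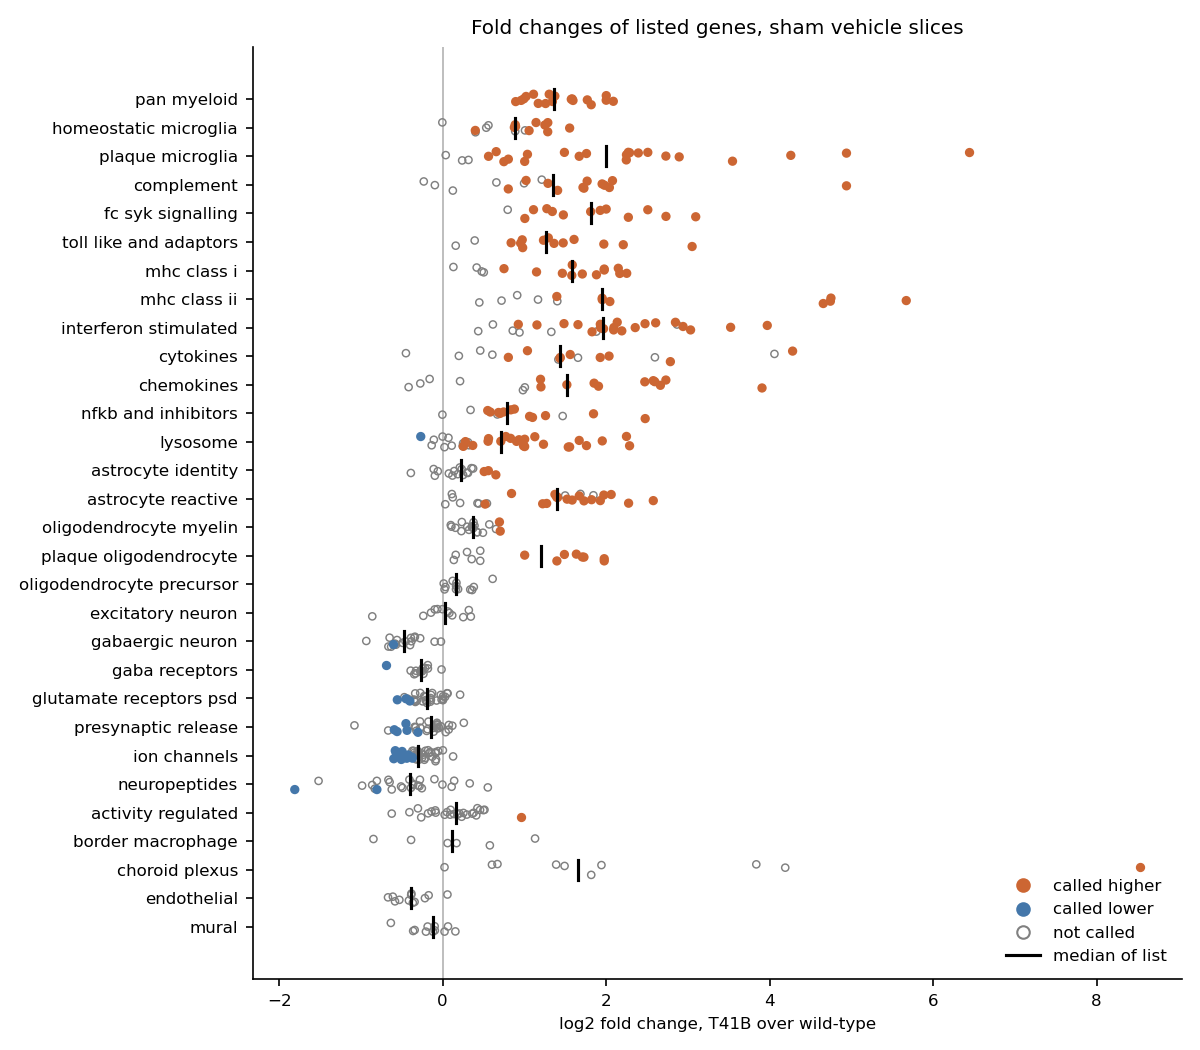
Log2 fold change of T41B over wild-type slices for each tested gene of 30 lists, filled where the gene was called (orange higher, blue lower) and open where it was not, with a line at each list's median. Genes with no count in any wild-type library are left out. The medians of the immune lists lie to the right of 0, at 1.36 for the myeloid genes and 1.96 for the interferon genes, and those of the neuronal lists lie near 0 or to its left, at -0.30 for ion channels.

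Ion channel genes were lower by small amounts, and a minority of the list was called. The log2 fold change was negative in 35 of 37, against 9688 of 19478 genes tested. With edgeR 23 were lower at an unadjusted p under 0.05, while DESeq2 called 12 lower and limma 10. Of 37 ion channel genes, 9 were called lower and the median log2 fold change was -0.30; 14 had every T41B mouse below every wild-type mouse, against 3.33% of all genes. Kcna2, a potassium channel of axons, stood at 236, 218, 233 and 222 CPM in wild-type and at 181, 139, 143 and 178 CPM in T41B mice (-0.51 on the log2 scale, SE 0.11, with an edgeR adjusted p = 0.0025). Scn1a, the sodium channel of fast-spiking interneurons among other cells, stood at 149, 136, 139 and 128 CPM in wild-type and at 114, 72.8, 84.0 and 102 CPM in T41B mice (log2 fold change -0.57, SE 0.12). Kcnc2, a channel for fast repolarization, had -0.58 (SE 0.16). None of these 3 overlapped between genotypes, and in each the batch G mice were the lowest 2 of the 8. Without those mice edgeR called 0 of the 37, with 6 lower at an unadjusted p under 0.05, and the list median was -0.20. With batch as a covariate 3 were called lower, Kcna2 among them (edgeR adjusted p = 0.0356) but neither Scn1a (0.138) nor Kcnc2 (0.104).

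Synaptic genes were called lower in few members of each list. Of 30 genes of transmitter release, 5 were called lower with a median of -0.14. Syt1, the calcium sensor of release, stood at 1136, 990, 1199 and 1139 CPM in wild-type and at 941, 653, 736 and 943 CPM in T41B mice (log2 fold change -0.45, SE 0.12). Sv2b, a vesicle protein gene, had -0.59 (SE 0.17), the vesicle fusion gene Vamp1 -0.56 (SE 0.17) and the adhesion gene Nrxn3 -0.43 (SE 0.13). Of 32 genes of glutamate receptors and the postsynaptic density, 3 were called lower: the AMPA receptor genes Gria4 (-0.55, SE 0.15) and Gria3 (-0.45, SE 0.13) and the adhesion gene Nlgn1 (-0.40, SE 0.11). Gabrg3, a GABA receptor subunit gene, was the 1 of 14 called, at 31.4 to 32.8 CPM in wild-type and at 26.1, 14.6, 14.2 and 24.9 CPM in T41B mice (log2 fold change -0.69, SE 0.17). For each of these 3 lists edgeR called 0 without the batch G mice, with 2, 0 and 1 lower at an unadjusted p under 0.05. With batch as a covariate it also called 0 of each, with 10, 5 and 5 lower at that p. Syt1 was not called with batch as a covariate (edgeR adjusted p = 0.108), in batches A and C alone (0.589) or without the batch G mice (0.73). In batches A and C, whose mice are among those the call was made from, the T41B mouse was below its partner by 0.35 and 0.27 on the log2(CPM + 1) scale.

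Few genes that mark kinds of neurons were called. All 18 genes of GABAergic neurons had a negative log2 fold change, with a median of -0.47, but 1 was called, the interneuron RNA Dlx6os1 (-0.61, SE 0.17), while 10 were lower at an unadjusted p under 0.05. DESeq2 called 6 of them lower and limma 1, edgeR called 3 lower with batch as a covariate, Dlx6os1 not among them (adjusted p = 0.365), and 0 without the batch G mice, where 1 was lower at an unadjusted p under 0.05. Of 12 genes of excitatory neurons, edgeR, DESeq2 and limma each called 0, with 2 higher at an unadjusted p under 0.05 and a median of 0.03. Slc17a7, the vesicular glutamate transporter, had -0.24 (SE 0.14) and the kinase gene Camk2a 0.12 (SE 0.13). The general neuronal genes Map2 (-0.11, SE 0.09) and Snap25 (-0.27, SE 0.14) were not called. Of 26 neuropeptide genes, 2 were called lower, with 10 lower at an unadjusted p under 0.05: Crhbp, which binds the stress hormone CRH, at 6.49 to 10.6 CPM in wild-type and 4.52 to 5.63 CPM in T41B mice (log2 fold change -0.80, SE 0.21), and Npbwr1, a neuropeptide receptor gene (-1.81, SE 0.48). With batch as a covariate edgeR called 0 of the 26, with 7 lower at an unadjusted p under 0.05, and without the batch G mice 0, with 3 lower. The adjusted p was then 0.0531 and 0.364 for Crhbp and 0.196 and 0.502 for Npbwr1. Vgf, a secreted peptide precursor, was not called (-0.62, SE 0.20, edgeR adjusted p = 0.0603). In batches A and C alone edgeR called 2 neuropeptide genes lower, Vgf among them (adjusted p = 0.0238), and in the sham BD10-2 mice Vgf was called lower (-0.71, adjusted p = 0.0331). Of the 12 tested neurotrophin genes edgeR called 0, with 1 higher and 2 lower at an unadjusted p under 0.05, DESeq2 called 1 lower and limma 0. Ntrk2, which encodes TrkB, had -0.06 (SE 0.08).

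**Figure D3:**
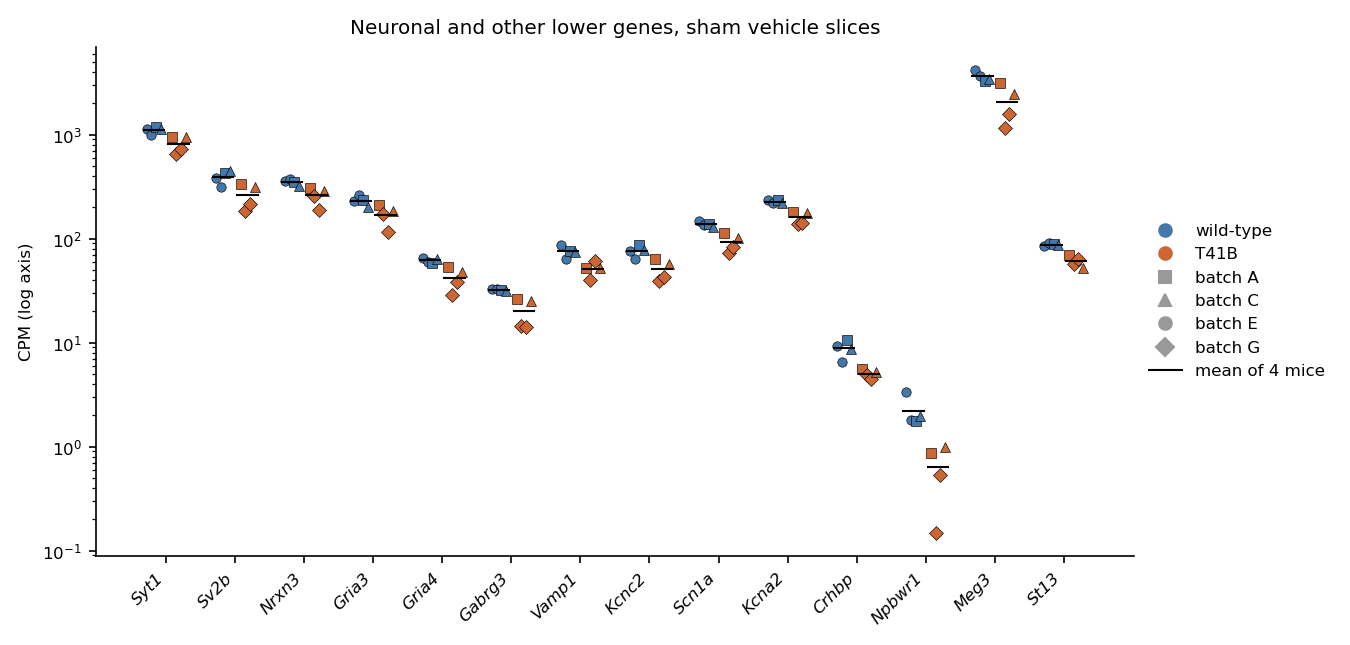
CPM of 14 genes called lower in each of the 8 sham vehicle mice on a log axis, with the same colours, symbols and lines as in the plot of glial and immune genes. The diamonds of the batch G mice are the lowest points for most genes, such as Meg3 at 1167 and 1569 CPM, and the distance between the genotypes is small beside that of the immune genes.

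Activity-regulated genes, which neurons switch on within minutes of firing, were called in 1 of 26, while 7 were higher and 2 lower at an unadjusted p under 0.05 and DESeq2 called 3 higher and 1 lower. The called gene, Egr2, stood at 6.52, 4.97, 7.23 and 7.74 CPM in wild-type and at 9.63, 13.9, 14.3 and 13.8 CPM in T41B mice (log2 fold change 0.96, SE 0.19), and it was not called with batch as a covariate (edgeR adjusted p = 0.0961) or without the batch G mice (0.0967). Fos missed the call (0.50, SE 0.16, edgeR adjusted p = 0.06) although its groups did not overlap, and Egr1 had 0.18 (SE 0.13). Of 17 antioxidant genes 5 were called higher, and of 18 heat shock and chaperone genes 2. Hmox1, heme oxygenase, had 1.88 (SE 0.44), the glutathione peroxidase gene Gpx1 0.85 (SE 0.15) and the endoplasmic reticulum chaperone gene Hspa5 0.48 (SE 0.11). Hmox1 stood at 30.5 CPM in Mouse1553 and at 7.19 to 13.1 CPM in the other T41B mice, against 2.81 to 5.97 CPM in wild-type mice. With batch as a covariate edgeR called 0 of either list, with 4 antioxidant and 2 chaperone genes higher and 1 chaperone gene lower at an unadjusted p under 0.05. Leaving out the batch G mice gave 0 antioxidant genes, with 5 higher at that p, and 1 chaperone gene, Hspa5 (adjusted p = 0.0373). The adjusted p in these settings was 0.308 and 0.585 for Hmox1 and 0.0961 and 0.0769 for Gpx1.

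The 10 lower genes with the largest decrease, by the same naming rule as above, included a noncoding RNA, receptors and a matrix gene. Fn1, the matrix protein fibronectin, stood at 74.9, 51.2, 70.4 and 70.3 CPM in wild-type and at 48.3, 22.4, 18.7 and 39.9 CPM in T41B mice (log2 fold change -1.05, SE 0.26). Ptger3, a prostaglandin receptor gene, had -1.30 (SE 0.32), the noncoding Mirt1 had -1.19, and the unclassified transcripts Gm47024 and Gm47026 had -1.28 and -1.14. Among genes named after their values were seen, the abundant noncoding RNAs Meg3 (-0.81, SE 0.22) and Rian (-0.56, SE 0.13), both from one imprinted locus, and Snhg11 (-0.77, SE 0.19), a small nucleolar RNA host gene annotated as coding, were lower. Meg3 stood at 4182, 3704, 3306 and 3447 CPM in wild-type and at 3138, 1167, 1569 and 2471 CPM in T41B mice. In batch A the differences of Meg3, Rian and Snhg11 were -0.08, -0.02 and -0.12 on the log2(CPM + 1) scale. None of the 8 genes named here was called with batch as a covariate (edgeR adjusted p of 0.137 for Ptger3 to 0.525 for Meg3) or without the batch G mice (0.492 for Ptger3 to 0.77 for Meg3). In batches A and C alone Fn1 was called (0.0435) and the other 7 were not.

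A group of 3 neighbouring genes on chromosome 15, also named after their values were seen, was lower, and 1 of them stayed called without the batch G mice. St13, a co-chaperone gene (chr15:81363669-81400077, GENCODE M21), stood at 84.7, 90.1, 89.8 and 86.1 CPM in wild-type and at 69.8, 57.7, 63.2 and 52.3 CPM in T41B mice. The groups did not overlap, Mouse1579 of batch C was the lowest, and St13 changed by -0.53 on the log2 scale (SE 0.10) at an edgeR adjusted p of 0.000797. Without the batch G mice St13 was still called (log2 fold change -0.51, edgeR adjusted p = 0.0377), and in batches A and C alone it was not (0.219). Mchr1, a receptor for melanin-concentrating hormone (chr15:81235499-81238964), had -0.85 (SE 0.19), and Slc25a17, a peroxisomal carrier gene (chr15:81318911-81360812), had -0.39 (SE 0.12). Neither was called without the batch G mice (edgeR adjusted p = 0.29 and 0.352), and with batch as a covariate Mchr1 was called and Slc25a17 was not (0.353). All 3 were also called lower in the sham BD10-2 mice, at -0.66, -0.84 and -0.39.

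The 2 directions differed in what kind of gene they held. Protein-coding genes made up 96.5% of the 973 called higher and 76.5% of the 242 called lower, against 77.4% of all genes tested. The median length of the coding genes was 15.5 kb among those higher, 104 kb among those lower and 25.01 kb over all. Of the genes called higher, 456 changed by more than 2-fold, and 29 of those called lower did. The median log2 fold change was 0.94 for the higher and -0.47 for the lower genes.

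The contribution of single mice was read from all called genes. Among the 973 higher genes, Mouse1551 held the highest T41B value in 610 and Mouse1510 the lowest in 710. The batch G mice were the 2 highest of all 8 in 552, or 56.7%, against 14.5% of all genes tested. Among the 242 lower genes they were the 2 lowest in 173, or 71.5%, against 12.4% of all genes. The 2 mice also had more choroid plexus RNA: the 10 markers summed to 372 and 850 CPM in Mouse1551 and Mouse1553, against 140 to 171 CPM in the other 6 mice, and Ttr, the transthyretin gene, stood at 91.6 and 472 CPM there, against 0 to 2.19 CPM. Their endothelial markers summed to 196 and 121 CPM against 198 to 271 CPM. The part of these tissue differences in the genotype comparison was not tested.

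**Figure D4:**
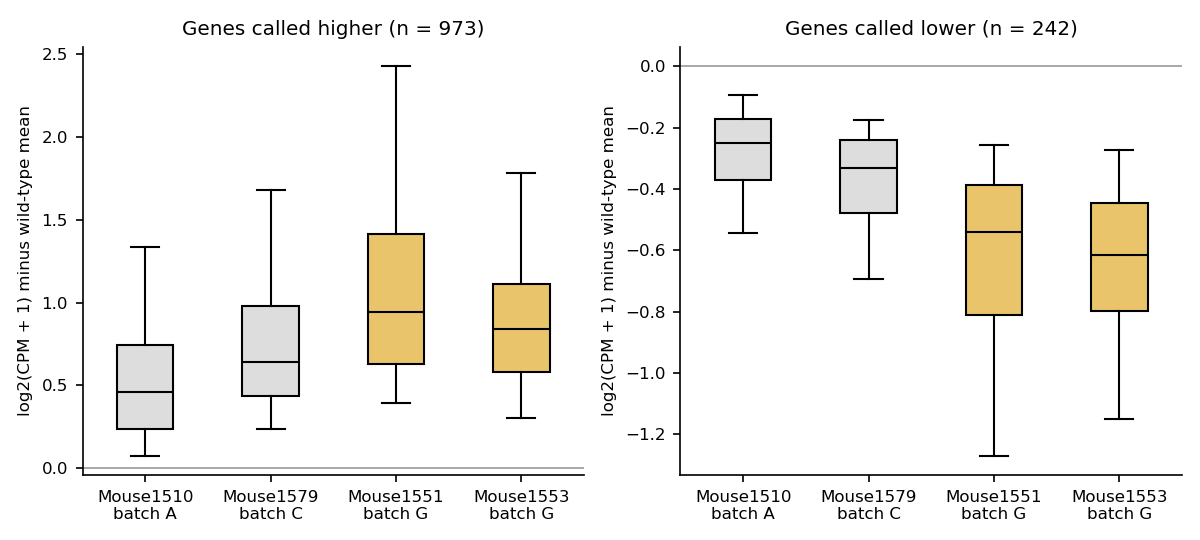
Difference of each T41B mouse from the wild-type mean on the log2(CPM + 1) scale, over the 973 genes called higher and the 242 called lower; boxes span the quartiles with the median as a line, whiskers run from the 5th to the 95th percentile, and batch G is yellow. Medians for the lower genes are -0.25 and -0.33 in the mice of batches A and C and -0.54 and -0.62 in those of batch G.

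Batches A and C, each with 1 mouse a genotype, hold 4 of the 8 mice that the calls were made from, so the signs of called genes there are a description and no separate support. Of the higher genes 925 of 973 had a positive difference in both batches, with median differences of 0.45 in A and 0.56 in C on the log2(CPM + 1) scale. Of the lower genes 224 of 242 were negative in both, with medians of -0.24 and -0.31. Over all genes tested, 7878 of 19478 had the sign of their fold change in both batches. With both batch G mice left out, a setting added after the data were seen, 258 genes were called higher and 3 lower, and with batch as a covariate 331 and 21. Because E and G each held 1 genotype, the covariate fit compared the genotypes only within A and C. Against 1215 calls with all 8 mice, 556 were made without Mouse1551 and 2066 without Mouse1510, and 606 genes were called without Mouse1509, 795 without Mouse1513 and 709 without Mouse1553. Genes called lower numbered 642 without Mouse1510, 42 without Mouse1551, 55 without Mouse1553, 60 without Mouse1509, 130 without Mouse1522 and 153 without Mouse1513. Of the plaque-microglia genes 17 of 24 were called without the batch G mice, of the myeloid genes 15 of 18 and of the reactive astrocyte genes 12 of 28.

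The sham BD10-2 groups hold the same genotype contrast in other mice, 5 T41B and 3 wild-type. These T41B mice had the batch labels B, D, H and I, and the wild-type mice only D and I. Batches B and H thus held no wild-type mouse of this set, and genotype and batch cannot be told apart in them. In this contrast 839 genes were called higher, a background of 4.31%, and 223 lower, a background of 1.14%. Of the genes higher in the vehicle mice, 609 were called higher in the BD10-2 mice, which is 62.6% of the vehicle list and 72.6% of the BD10-2 list. Of the lower genes 64 were shared, 26.5% of the vehicle list and 28.7% of the other. No gene was called in opposite directions, and the sign was the same for 965 of 973 and 236 of 242 called genes, against 75.8% of all genes tested. Cst7 and Gfap had log2 fold changes of 7.06 and 2.19 in those mice. The plaque-microglia list had 21 of 24 called in each set of mice, while the interferon list had 20 of 28 in the vehicle mice and 12 of 28 in the BD10-2 mice. In the same order, 9 and 6 of 37 ion channel genes and 1 and 5 of 18 GABAergic genes were called lower. For GABA receptor genes it was 1 and 3 of 14, for release genes 5 and 2 of 30 and for glutamate receptor genes 3 and 2 of 32. Dlx6os1 had -1.045 in the BD10-2 mice (edgeR adjusted p = 0.000147). The difference between the vehicle and BD10-2 contrasts, tested with edgeR, was called for 0 genes, with 364 at an unadjusted p under 0.05. The difference between the sham and stimulated slices of the vehicle mice, which share their animals, was called by edgeR for 0 genes, with 1683 at an unadjusted p under 0.05. That fit had no term for the mouse, so the pairing of slices was not used.

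**Figure D5:**
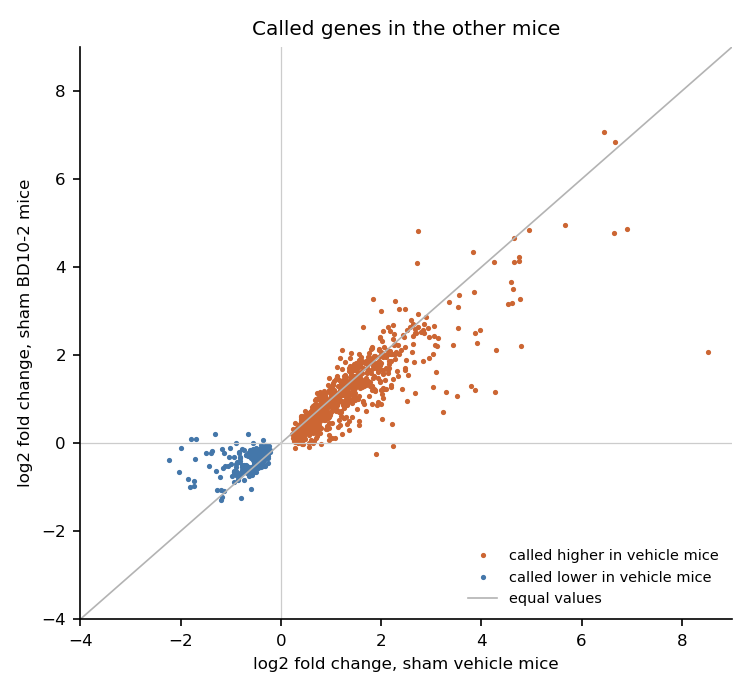
Log2 fold change of T41B over wild-type in the sham vehicle mice (x axis) and in the sham BD10-2 mice (y axis) for the 973 genes called higher (orange) and the 242 called lower (blue) in the vehicle mice, with a line of equal values. The sign is shared by 965 and 236 of them.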

How the data were processed

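Strand-specific total RNA libraries with ribosomal RNA removed were sequenced, per the labels' protocols. The authors deposited RSEM expected counts, estimated read counts per gene that are not scaled between libraries; cutadapt 1.8.1, STAR 2.7.6a, RSEM 1.3.1, featureCounts 1.6 and SAMtools 1.11 and the builds GRCm38.p6 and mm10 are named in the submitters' processing notes, and the annotation release and strand setting of the counting are not given in the sources used here. RSEM divides reads between similar transcripts, so counts of gene families, overlapping genes and antisense genes are uncertain. Symbols matched 55154 of the 55421 identifiers. Counts were rounded, 4 pairs of libraries with the same mouse and stimulation were added (32 samples, 18 mice), and genes were kept with edgeR's filterByExpr (minimum count 10), leaving 19478. edgeR 4.0.16 (R 4.3.3) fitted all 8 groups in 1 quasi-likelihood model with TMM scaling (factors 0.91 to 1.063) and no covariate; the contrast used the 8 sham vehicle mice. A gene was called at a Benjamini-Hochberg adjusted p under 0.05 over all genes. Batch differences used log2(CPM + 1). In simulated counts for this contrast with 200 changed genes among 19478, 79.5% were recovered at a log2 fold change of 1 and 97% at 2. False calls numbered 8 and 18. The changed genes were drawn from those averaging at least 1 CPM in wild-type mice. The simulated counts held no correlation within a mouse and no batch. Alternatives were size factors, filters, rounding, fewer libraries, batch as a covariate, each mouse left out, DESeq2 1.42.0 and limma 3.58.1.

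The comparison, the gene lists and the tests were chosen with earlier results of these data known. Genes are named by rule: App and Thy1, the 10 called genes with the largest and the 10 with the smallest fold change averaging at least 1 CPM without overlap, and in each list up to 4 called members and 2 not called. Others are said to be named after their values were seen. Promoter windows came from RefSeq. Stimulated slices share mice with the sham slices and entered the fit, and so its estimate of the spread, but not the contrast; they were also used for the difference of the contrasts. Values of some genes that the rule names are not reported here.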

Additional observations from a re-analysis of the deposited data

Results flagged for a closer look

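Each of the 129 genes named in the text was looked at in both genotypes, 258 groups of 4 mice, for a mouse whose gap to the nearest other, divided by the group's range, passed Dixon's 95% limit. Chance picks out about 1 in 20 groups, and 10 values stood apart, 4 of them in Mouse1551. In that mouse H2-D1 was 274 CPM against 115 CPM in the next T41B mouse, Ifi27l2a 7.8 against 2.13 CPM, Ifit1 24.8 against 10.2 CPM and Stat2 36.2 against 25.7 CPM. The fifth value in T41B mice was Egr2 in Mouse1510, at 9.63 CPM below the next mouse at 13.8 CPM. Among wild-type mice, Mouse1522 was high for Ifit1 (6.04 against 1.96 CPM). Mouse1524 was high for C1qb (37.2 against 26.9 CPM) and Sox9 (84.8 against 61.6 CPM). H2-Eb1 stood apart in Mouse1513 (0.793 against 0.237 CPM) and Npbwr1 in Mouse1509 (3.32 against 1.96 CPM).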

How the results depend on the processing

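Genes called numbered 537 in a fit of only the 8 sham vehicle libraries (518 higher, 19 lower), 352 with batch as a covariate (331 and 21), 205 in batches A and C alone (199 and 6) and 261 without both batch G mice, a setting added after the data were seen (258 and 3). Lower genes numbered 132 without the low-count filter and 425 with DESeq2. With 1 mouse left out, 556 to 2066 genes were called, 514 to 1424 higher and 42 to 642 lower. RLE size factors, unrounded counts and limma changed the numbers of all genes called, higher or lower, by less than 1.5 times, but within lists limma called fewer: 2 interferon-stimulated genes against 20, 7 class I genes against 12, 5 class II against 8, 6 chemokines against 11 and 2 inflammasome genes against 4. The difference between sham and stimulated slices had 5 genes called with batch as a covariate against 0. The Thy1 difference on the log2(CPM + 1) scale, 2.18, was 2.06 to 2.4 with 1 mouse left out, where p = 0.0571 is the smallest exact permutation p. The cause of these changes was not tested. Of the 102 called genes named, 71 stayed called in the fit of only the 8 libraries and 62 with batch as a covariate. In batches A and C alone 49 stayed called, and without the batch G mice 51. No paired analysis was possible because the labels give the genotypes no shared replicate number, beyond batches A and C, whose 1 mouse of each genotype gave the 205 calls above. At 4 mice a side the simulated counts gave 79.5% recovery at a log2 fold change of 1, for genes averaging at least 1 CPM in wild-type mice. Smaller changes, such as those of most lower genes, were not simulated, nor were changes in genes under that level.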
